A study of Mus musculus with 10 samples.

Results

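The 9 genes described here encode the neurofilament subunits of neurons (Nefl, Nefm, Nefh and Ina), the growth cone protein Gap43, the neuronal ubiquitin hydrolase Uchl1, the reticulon Rtn1 and the endosomal proteins Nsg1 and Nsg2. They were chosen by symbol, and all 9 were found among the 30935 gene IDs of the count table. Counts came from RNA-seq of the mouse midbrain at embryonic day 14.5. The deletion group held 5 libraries (numbered 2, 3, 4, 5 and 6) from embryos homozygous for loss of the element 2xHAR.321 in the Rbfox1 locus (Rbfox1 ΔHAR.321/ΔHAR.321), and the wild-type group held 5 (numbered 1, 2, 4, 5 and 6) from Rbfox1 +/+ embryos. Human accelerated regions (HARs) are stretches of DNA that many species share almost unaltered but that diverged quickly in humans, and Rbfox1 encodes a regulator of splicing in neurons. The submitters call the 5 samples of a group biologically independent. The sources used here do not give strain, sex, litter or the number of founder lines.

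Neurofilaments are intermediate filaments that fill the axon and set its calibre. The light, medium and heavy chains and alpha-internexin co-assemble, and in rodents alpha-internexin and the light and medium chains appear in young neurons, while the heavy chain comes with the maturing axon. Gap43 is a membrane-bound protein of the growing axon tip that is made at high levels while axons extend. Uchl1 removes ubiquitin from small adducts and is abundant in neurons, Rtn1 shapes the endoplasmic reticulum, and Nsg1 and Nsg2 are small membrane proteins of neuronal endosomes that take part in receptor trafficking.

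Libraries held 16323500 to 20255728 counts in the deletion group and 16246892 to 19090641 in the wild-type group. The 9 genes took 0.547% to 0.591% of the counts of a deletion library and 0.538% to 0.589% of those of a wild-type library. Rbfox1 itself averaged 161 ± 13.7 CPM in the deletion group and 149 ± 11 CPM in the wild-type group (SD, n = 5 each; CPM are counts scaled to a common library size after TMM normalization), a difference that missed the threshold in edgeR's quasi-likelihood test (log2 fold change 0.11, SE 0.07, Benjamini-Hochberg adjusted p = 0.606). The position of the deleted element relative to the counted exons was not analysed here, so this level does not check the labels. Of 7 midbrain markers, all were tested and 0 passed (0 had an unadjusted p under 0.05). En1 and Otx2, both midbrain transcription factor genes, had the smallest p of the list (log2 fold change -0.16, SE 0.12, adjusted p = 0.683 for En1, and -0.15, SE 0.12, adjusted p = 0.724 for Otx2). The summed level of the 7 ran from 458 to 551 CPM in the deletion group and from 502 to 578 CPM in the wild-type group. Of 6 forebrain and spinal cord markers 2 were tested and 0 passed (0 had an unadjusted p under 0.05), the log2 fold change being -0.23 for Emx2 (SE 0.13, adjusted p = 0.600) and -0.19 for Emx1 (SE 0.32, adjusted p = 0.889). Deletion 4 stood apart from its group. Its counts differed from those of the other deletion libraries by a chi-square per degree of freedom of 22.4 to 36.3, against 6.04 to 11.5 among the others. Of the 10 libraries it had the lowest summed CPM of pan-neuronal markers and of the lists of filament transport, growth cone and receptor trafficking genes, and the highest of the lists of ubiquitin genes, red blood cells, and endothelial, meningeal and microglial cells. Without it edgeR called 357 genes in place of 9, and 0 of the 9 genes described here. The slope on log2 transcript length of a library's log2 CPM minus the gene's mean over the 10 libraries, taken over 10618 genes, was -0.06 in deletion 4, against 0.03 to 0.10 in the other deletion libraries and -0.06 to -0.01 in the wild-type libraries.

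Start regions from RefSeq (GRCm38.p6) were at hand for 4 of the 9 genes (Uchl1, Nsg2, Rtn1 and Ina). The 250 bases upstream of the annotated start are printed for Ina and Uchl1, since these abundant genes have 1 listed start each, so that the window is the one from which the gene is annotated to begin. Both lie on the plus strand, Ina at chr19:47014431-47014680 and Uchl1 at chr5:66675871-66676120, and both are given 5′ to 3′ with motif matches in capitals.
Ina: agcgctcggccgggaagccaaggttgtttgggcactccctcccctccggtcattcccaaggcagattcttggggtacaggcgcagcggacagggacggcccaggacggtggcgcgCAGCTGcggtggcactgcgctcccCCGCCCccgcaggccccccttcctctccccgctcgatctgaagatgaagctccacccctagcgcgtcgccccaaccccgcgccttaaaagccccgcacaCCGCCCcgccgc
Uchl1: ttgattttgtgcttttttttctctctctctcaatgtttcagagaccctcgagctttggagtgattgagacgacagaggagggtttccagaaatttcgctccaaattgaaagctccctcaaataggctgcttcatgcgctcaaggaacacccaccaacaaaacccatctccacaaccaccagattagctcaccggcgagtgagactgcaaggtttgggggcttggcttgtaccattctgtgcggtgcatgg
The motifs searched on both strands were the TATA box TATAAA, the CCAAT box CCAAT, the GC box GGGCGG and the E-box CAGCTG. Ina held 2 GC boxes and 1 E-box, and Uchl1 held none of the 4. Of 32851 start regions of the same length, 12.4% held a TATA box, 33.8% a CCAAT box, 32.7% a GC box and 13.0% an E-box. A match is only a match of letters.

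Most of these genes were among the most abundant of the midbrain at this stage. Levels between genes were compared as CPM per kb of the longest annotated transcript (GENCODE M21), averaged over all 10 libraries. Uchl1 stood highest at 730 CPM per kb, followed by Gap43 at 586 and Nsg2 at 458. Rtn1 (301 CPM per kb) and Ina (289 CPM per kb) came next, then Nsg1 at 230. Far below them were Nefl at 45.6, Nefm at 40.8 and Nefh at 2.63 CPM per kb. The ranges over the 10 libraries did not overlap between neighbours in this order, except for Rtn1 (276 to 321.4) with Ina (250 to 332) and for Nefl (35.7 to 53.1) with Nefm (31.6 to 52.0). Annotated transcripts run from 228 to 1177 bases for Uchl1, from 760 to 1420 for Gap43, from 641 to 2239 for Nsg2, from 465 to 3629 for Rtn1 and from 416 to 2581 for Nsg1, so the place of these 5 genes depends on which transcript is used.

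**Figure D1:**
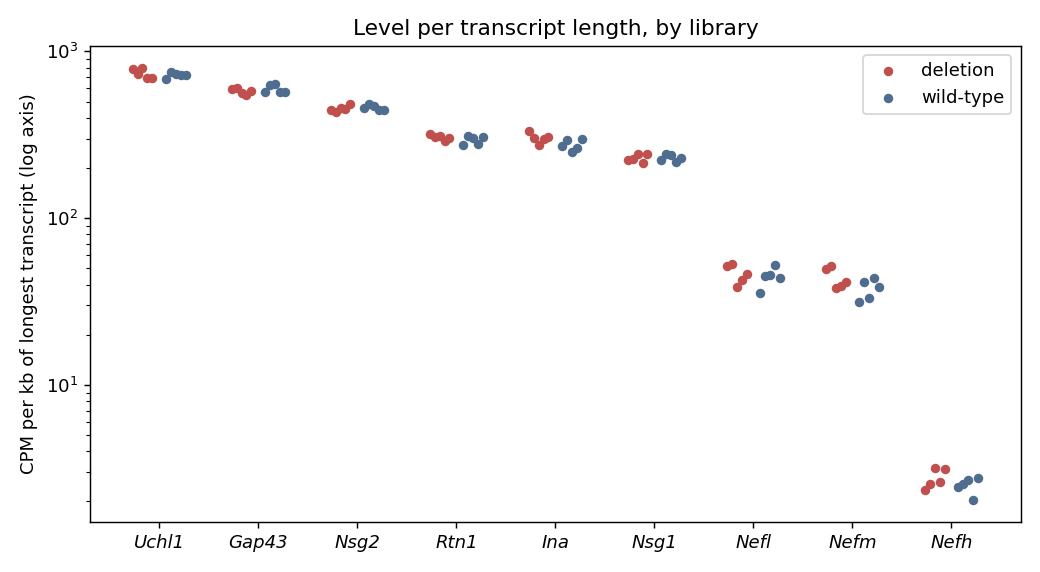
Level of each gene in CPM per kb of its longest transcript (vertical log axis), with genes ordered by their mean; each point is 1 library, deletion libraries on the left of each pair and wild-type libraries on the right. Nefh lies at 2.04 to 3.17 CPM per kb, below Nefl and Nefm, and the other 6 genes lie above 213 CPM per kb.

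Alpha-internexin made up most of the neurofilament message. Of the summed CPM per kb of the 4 filament genes, Ina took 76.5% ± 1.69 in the deletion group and 76.4% ± 2.56 in the wild-type group (SD, n = 5 each). Nefl took 11.7% ± 0.805 in the deletion group and 12.4% ± 1.71 in the wild-type group. Nefm followed with 11.1% ± 1.01 in the deletion group and 10.5% ± 1.10 in the wild-type group. The heavy chain gene Nefh made up 0.706% ± 0.137 in the deletion group and 0.696% ± 0.0889 in the wild-type group.

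The deletion and wild-type groups were then compared gene by gene, which asks whether loss of the element altered these axonal genes. Of the 9 genes, 0 passed edgeR's quasi-likelihood test at a Benjamini-Hochberg adjusted p of 0.05 over the 15288 genes tested, where 0.0589% of all genes passed. DESeq2 called 0 of the 8 genes to which it gave an adjusted p (3.23% of the 8080 genes that received one) and limma-voom 0 of 9 (0% of all genes). At an unadjusted p under 0.05 in edgeR, 1 of the 9 was higher and 0 were lower, beside 10.5% of all genes (5.62% higher and 4.92% lower). The groups overlapped for 9 of the 9, while 2.49% of all genes had groups that did not overlap (1.22% higher and 1.26% lower). By fold change, 6 were higher and 3 lower in the deletion group, and the median of their log2 fold changes was 0.05, while 49.3% of all genes were higher and the median of all genes was -0.00.

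**Figure D2:**
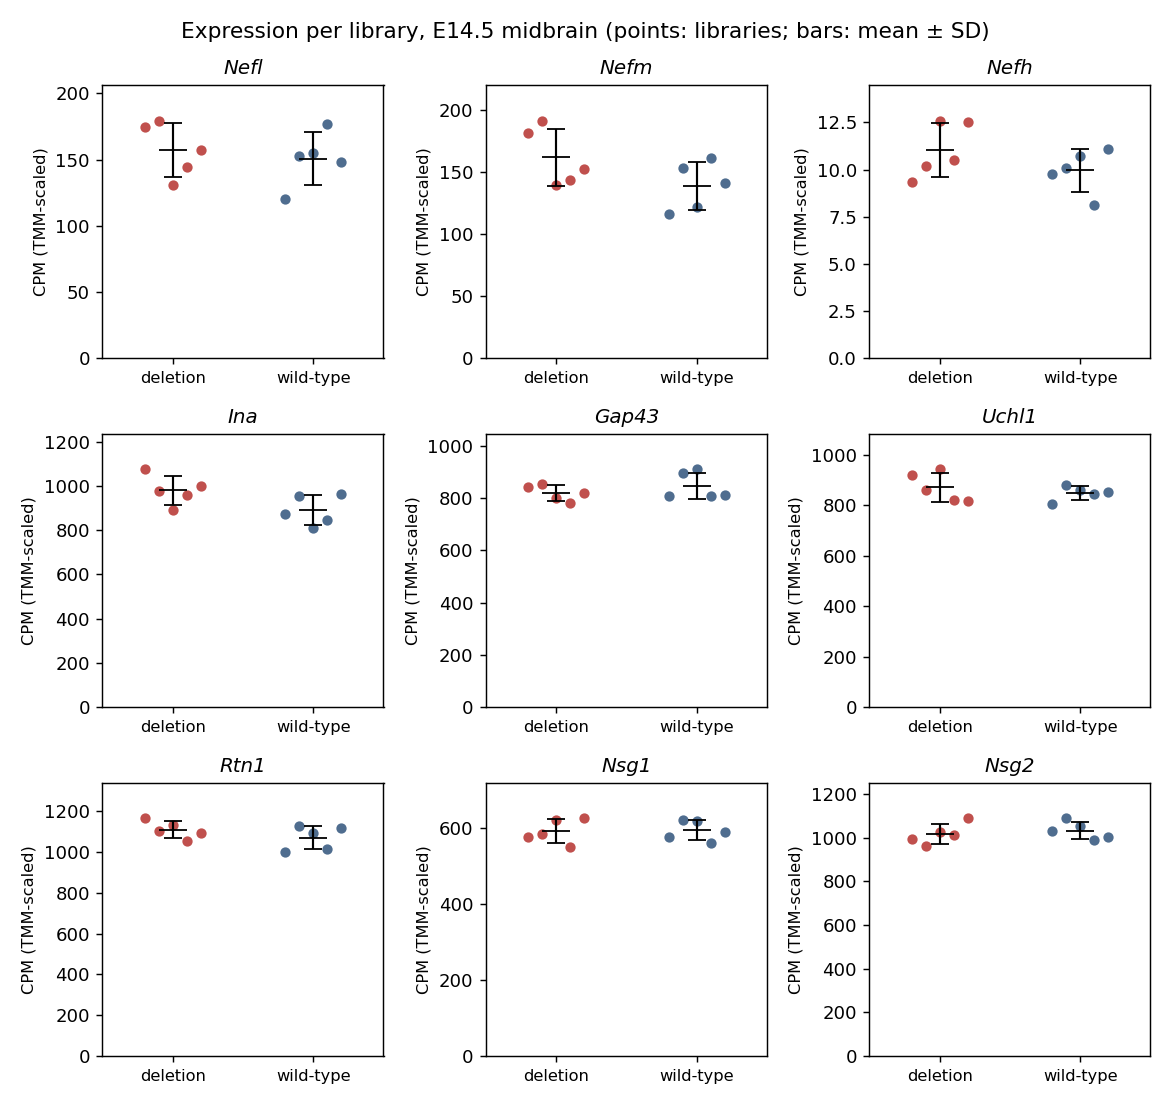
CPM of each gene (TMM-scaled, vertical axes start at 0) in every library, deletion on the left and wild-type on the right; bars give the mean and SD of 5 libraries. The groups overlap for all 9 genes, and the means lie at 162 against 139 CPM for Nefm and at 980 against 890 CPM for Ina.

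Nefm, the medium chain, had the smallest p of the 9. It stood at 181, 191, 140, 144 and 153 CPM in deletion 2 to 6, against 116, 153, 121, 161 and 141 CPM in wild-type 1, 2, 4, 5 and 6. Each deletion library exceeded the mean of the wild-type group, and 2 of the 5 exceeded all wild-type libraries. The means were 162 ± 23.2 CPM in the deletion group and 139 ± 19.6 CPM in the wild-type group (SD, n = 5 each). The log2 fold change was 0.22 (SE 0.10, 95% interval 0.01 to 0.43, edgeR adjusted p = 0.453, unadjusted p = 0.0429). Without single libraries the log2 fold change lay between 0.15 and 0.28. It was 0.09 over the 8 libraries whose number both groups have, that is without both deletion 3 and wild-type 1, which were the highest and the lowest of the 10. With each library's trend on length and GC content removed, it was 0.19 (SE 0.14, edgeR unadjusted p = 0.207, adjusted p = 0.723).

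Ina, alpha-internexin, stood at 1075, 976, 893, 961 and 998 CPM in deletion 2 to 6, against 875, 955, 809, 848 and 965 CPM in wild-type 1, 2, 4, 5 and 6. Each deletion library again exceeded the wild-type mean, and 3 of the 5 exceeded all wild-type libraries. The means were 980 ± 65.7 CPM in the deletion group and 890 ± 67.9 CPM in the wild-type group (SD, n = 5 each; log2 fold change 0.14, SE 0.07, 95% interval -0.00 to 0.28, edgeR adjusted p = 0.492, unadjusted p = 0.0552). Across the 10 libraries the Ina level moved with the length slope described above (Pearson r = 0.799, permutation p = 0.00539, adjusted p = 0.175; Spearman rho = 0.842, permutation p = 0.00372, adjusted p = 0.0837 over 45 relations). Without the 2 libraries of most extreme slope, r was 0.915. It was 0.648 within the deletion libraries and 0.992 within the wild-type ones. With each library's trend on length alone removed, the log2 fold change of Ina was 0.15 (SE 0.07, unadjusted p = 0.0343, adjusted p = 0.586), and with GC content as well it was 0.12 (SE 0.07, unadjusted p = 0.0708, adjusted p = 0.566). Without deletion 4 it was 0.17 (SE 0.06, unadjusted p = 0.00985, adjusted p = 0.148).

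Nefl, the light chain on which the other chains assemble, differed less. It had 175, 179, 130, 145 and 157 CPM in deletion 2 to 6, against 121, 153, 155, 177 and 148 CPM in wild-type 1, 2, 4, 5 and 6. High and low libraries occurred in both groups, and the means were 157 ± 20.4 CPM in the deletion group and 151 ± 20.2 CPM in the wild-type group (SD, n = 5 each; log2 fold change 0.06, SE 0.10, 95% interval -0.14 to 0.26, edgeR adjusted p = 0.884). Without wild-type 1, the lowest library, the log2 fold change was -0.01.

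Nefh, the heavy chain, was the rarest, with a mean of 10.5 CPM and 152 to 255 reads per library. It had 9.36, 10.2, 12.6, 10.5 and 12.5 CPM in deletion 2 to 6, against 9.78, 10.1, 10.7, 8.15 and 11.1 CPM in wild-type 1, 2, 4, 5 and 6. Deletion 4 and 6 lay above every wild-type library and deletion 2 below the wild-type mean. The log2 fold change was 0.15 (SE 0.13, 95% interval -0.12 to 0.42, edgeR adjusted p = 0.753).

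Gap43, which lies on chromosome 16 like Rbfox1, had 842, 852, 798, 780 and 819 CPM in deletion 2 to 6, against 808, 894, 909, 809 and 812 CPM in wild-type 1, 2, 4, 5 and 6. Wild-type 2 and 4 were the highest, and 4 of the 5 deletion libraries were under the wild-type mean. The means were 818 ± 29.9 CPM in the deletion group and 846 ± 50.5 CPM in the wild-type group (SD, n = 5 each; log2 fold change -0.05, SE 0.06, 95% interval -0.18 to 0.08, edgeR adjusted p = 0.850).

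Uchl1 had 918, 861, 941, 819 and 816 CPM in deletion 2 to 6, against 803, 880, 858, 846 and 853 CPM in wild-type 1, 2, 4, 5 and 6. Deletion 4 and 2 were the highest of all, and deletion 5 and 6 were lower than all but wild-type 1. The means were 871 ± 56.9 CPM in the deletion group and 848 ± 28.3 CPM in the wild-type group (SD, n = 5 each; log2 fold change 0.04, SE 0.06, 95% interval -0.09 to 0.17, edgeR adjusted p = 0.888). Its transcript is the shortest of the 9 at 1177 bases, and after correction for length and GC content its log2 fold change was 0.14 (SE 0.05, unadjusted p = 0.00911, adjusted p = 0.296). An antisense transcript of Uchl1 is known in mouse, and without a stated strand setting its reads could not be told apart from those of Uchl1.

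Rtn1, the most abundant of the 9 by CPM, had 1166, 1106, 1132, 1057 and 1093 CPM in deletion 2 to 6, against 1002, 1126, 1093, 1017 and 1119 CPM in wild-type 1, 2, 4, 5 and 6. Its groups overlapped over most of their range, with wild-type 1 and 5 lowest. The means were 1111 ± 41.2 CPM in the deletion group and 1072 ± 58.1 CPM in the wild-type group (SD, n = 5 each; log2 fold change 0.05, SE 0.06, 95% interval -0.08 to 0.18, edgeR adjusted p = 0.834). The transcripts of Rtn1 from its different starts were counted together.

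The endosomal pair moved least. Nsg1 had 578, 584, 622, 552 and 626 CPM in deletion 2 to 6, against 578, 622, 620, 562 and 591 CPM in wild-type 1, 2, 4, 5 and 6 (log2 fold change -0.01, SE 0.06, 95% interval -0.13 to 0.12, edgeR adjusted p = 0.987). Nsg2 had 994, 964, 1028, 1011 and 1089 CPM in deletion 2 to 6, against 1029, 1090, 1053, 992 and 1003 CPM in wild-type 1, 2, 4, 5 and 6 (log2 fold change -0.02, SE 0.06, 95% interval -0.15 to 0.10, edgeR adjusted p = 0.941). For both, the group means were nearly equal. Nsg1 averaged 592 ± 31.5 CPM in the deletion group and 595 ± 26.1 CPM in the wild-type group, and Nsg2 1017 ± 46.3 CPM in the deletion group and 1033 ± 39.3 CPM in the wild-type group (SD, n = 5 each).

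**Figure D3:**
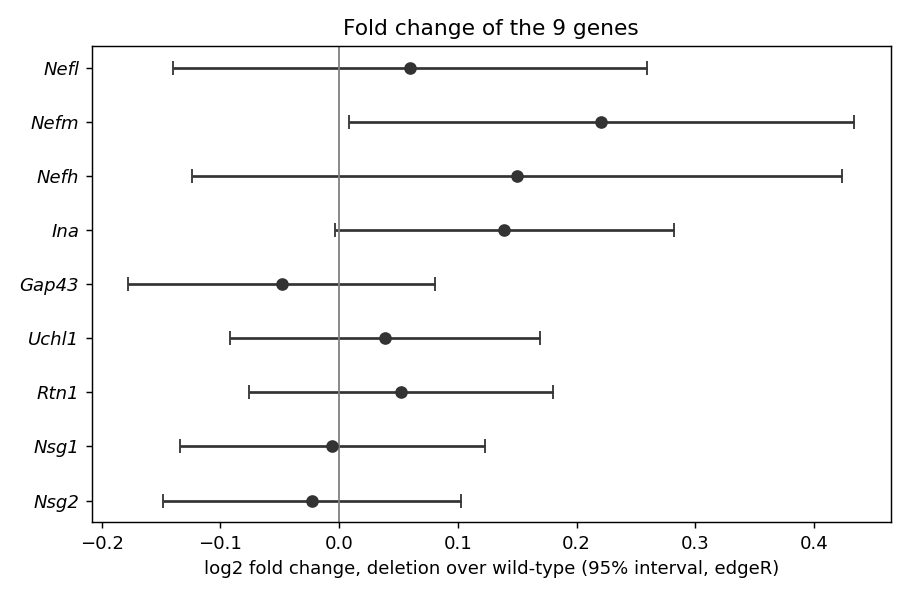
Log2 fold change of each gene, deletion over wild-type, with its 95% interval from edgeR (horizontal axis); the vertical line marks no difference. The interval of Nefm runs from 0.01 to 0.43 and leaves out 0 before any adjustment for the number of genes tested, and those of the other 8 genes include 0.

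Length differed between the higher and the lower members. The 5 genes with a transcript of 3240 to 3994 bases (Nefl, Nefm, Nefh, Ina and Rtn1) were all higher in the deletion group, and of the 4 with 1177 to 2581 bases, Uchl1 was higher and Gap43, Nsg1 and Nsg2 were lower. The length slope of a library averaged 0.03 ± 0.06 in the deletion group and -0.03 ± 0.02 in the wild-type group (SD, n = 5 each). With the trend on length alone removed, the log2 fold change was 0.22 for Nefm (0.22 before) and 0.15 for Ina (0.14 before). It was 0.14 for Nefh (0.15 before), 0.065 for Nefl (0.06 before) and 0.05 for Rtn1 (0.05 before). With GC content as well, it was 0.19 for Nefm (SE 0.14) and 0.12 for Ina (SE 0.07). The same correction gave 0.10 for Nefh (SE 0.13), 0.05 for Nefl (SE 0.12) and 0.02 for Rtn1 (SE 0.05). After correction for length and GC content, all 9 were higher, Gap43 by 0.05 (SE 0.05), Nsg2 by 0.01 (SE 0.05) and Nsg1 by 0.00 (SE 0.05) on the log2 scale, and none passed in edgeR. The sign of the small differences of Gap43, Nsg1 and Nsg2 thus depended on that correction.

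Ratios of members within a library do not depend on how libraries are scaled, and 4 of them were compared by an exact two-sided permutation test over the 5 against 5 libraries, whose smallest p is 0.00794. The filament chains are made to assemble together, so the ratio of Nefm to Nefl asks whether the chains kept their proportion. There were 1.04, 1.07, 1.07, 0.993 and 0.973 Nefm reads per Nefl read in deletion 2 to 6, against 0.965, 1.0, 0.783, 0.910 and 0.952 in wild-type 1, 2, 4, 5 and 6. Every deletion library exceeded the wild-type mean and 3 of the 5 exceeded all wild-type libraries, with wild-type 4 the lowest of the 10. The mean log2 ratio was 0.04 ± 0.06 in the deletion group and -0.12 ± 0.14 in the wild-type group (SD, n = 5 each), a difference of 0.16 (exact permutation p = 0.0317, adjusted p = 0.127 over the 4 ratios), which did not pass. Without wild-type 4 the difference was 0.10.

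Ina had 6.16, 5.44, 6.84, 6.64 and 6.35 reads per Nefl read in deletion 2 to 6, against 7.26, 6.25, 5.21, 4.79 and 6.50 in wild-type 1, 2, 4, 5 and 6. The wild-type libraries enclosed the deletion ones at both ends (log2 difference 0.08, exact permutation p = 0.532, adjusted p = 0.714). The difference was 0.00 without wild-type 5, 0.03 without wild-type 4, 0.05 without deletion 4, 0.13 without deletion 3 and 0.15 without wild-type 1. Nefh had 0.0538 to 0.0971 reads per Nefl read in the deletion group and 0.0462 to 0.0814 in the wild-type group (log2 difference 0.08, exact permutation p = 0.714, adjusted p = 0.714). Nsg2 had 1.65 to 1.83 reads per Nsg1 read in the deletion group and 1.70 to 1.78 in the wild-type group (log2 difference -0.02, exact permutation p = 0.611, adjusted p = 0.714). The groups overlapped in both of these ratios.

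**Figure D4:**
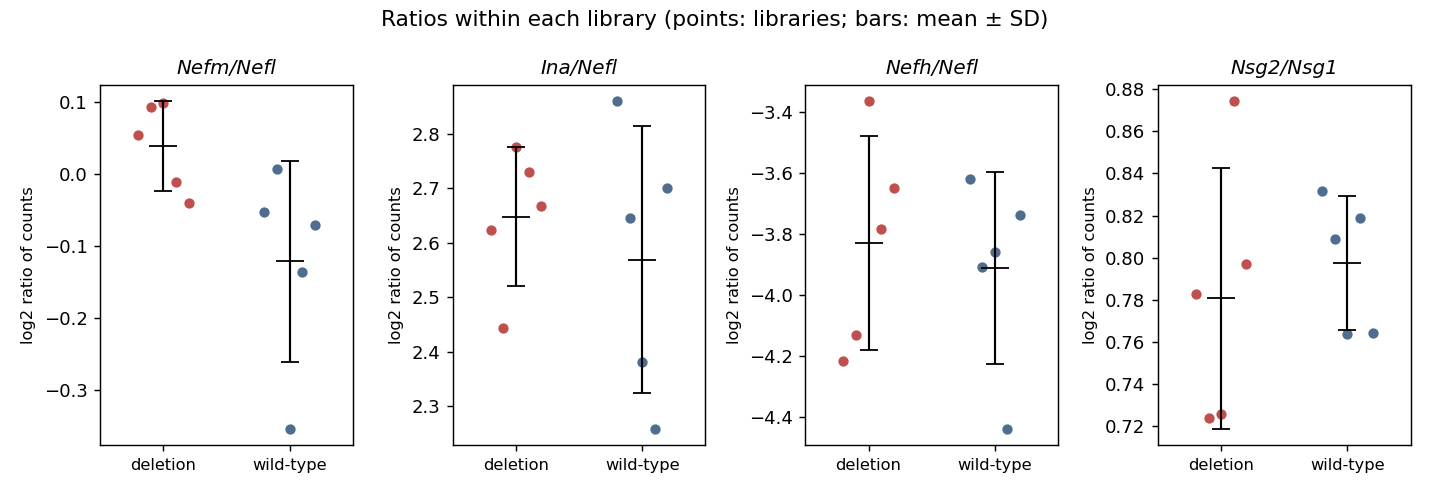
Log2 ratio of counts within each library (vertical axes, which differ between panels and do not start at 0) for Nefm/Nefl, Ina/Nefl, Nefh/Nefl and Nsg2/Nsg1; points are libraries, deletion left of wild-type, and bars give the mean and SD of 5. For Nefm/Nefl the deletion mean is 0.04 and the wild-type mean -0.12, and the groups overlap in all 4 panels.

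The 9 genes did not move as one block from library to library. Spread differed by gene: the SD of log2 CPM within the deletion group was 0.19 for Nefl and 0.20 for Nefm, against 0.05 for Gap43 and 0.05 for Rtn1. Of the 36 pairs of members, 25 had a positive Pearson correlation of log2 CPM over the 10 libraries, and 0 passed a permutation test at an adjusted p of 0.05 over the 36 pairs (5 had an unadjusted p under 0.05). The closest pair was Nefl with Nefm, which lie near each other on chromosome 14 with 1 annotated gene between them (r = 0.810, permutation p = 0.00516, adjusted p = 0.186; rho = 0.830, permutation p = 0.00493, adjusted p = 0.0887). Without the 2 libraries farthest from the median of Nefl, r was 0.760, and within groups it was 0.953 over the deletion libraries and 0.764 over the wild-type ones. With the group means removed, this was the 1 pair with an adjusted p under 0.05 (r = 0.855, permutation p = 0.00121, adjusted p = 0.0436). That permutation did not keep libraries within their group, which tends to make p too small. The pair is therefore not counted as passing.

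Uchl1 and Rtn1 also varied together (r = 0.761, permutation p = 0.0114, adjusted p = 0.205; rho = 0.855, permutation p = 0.00280, adjusted p = 0.0887; r = 0.678 without the 2 farthest libraries), as did Nsg1 and Nsg2 (r = 0.720, permutation p = 0.0212, adjusted p = 0.254; rho = 0.685, permutation p = 0.0345, adjusted p = 0.414; r = 0.737 without the 2 farthest). Within groups, r was 0.848 in the deletion and 0.834 in the wild-type libraries for Uchl1 with Rtn1, and 0.631 in the deletion and 0.866 in the wild-type libraries for Nsg1 with Nsg2. None of these pairs passed. Deletion 2 and 3 were the highest libraries for Nefm and among the lowest for Nsg2.

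**Figure D5:**
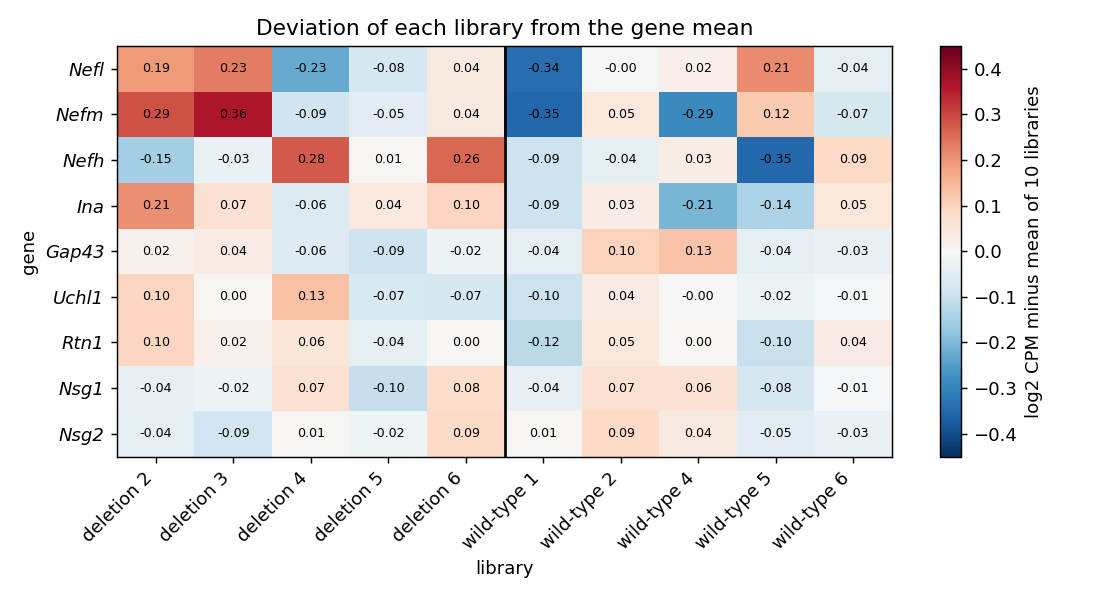
Log2 CPM of each gene (rows) in each library (columns, deletion left of the black line and wild-type right of it) minus the mean of that gene over the 10 libraries. Nefl and Nefm are both high in deletion 2 and 3 and both low in wild-type 1, at -0.34 for Nefl and -0.35 for Nefm, while the Nsg1 and Nsg2 rows stay between -0.10 and 0.09.

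Neurofilament chains are especially abundant in large projection neurons such as cranial motor neurons, and markers of that cell type varied between libraries. Of 8 listed markers 5 were tested and 0 passed (0 had an unadjusted p under 0.05). Isl1, a transcription factor gene of motor neurons, had a log2 fold change of -0.19 (SE 0.24, edgeR adjusted p = 0.846), and the summed level ran from 10.3 to 26.8 CPM in the deletion group and from 9.90 to 21.5 CPM in the wild-type group. The 3 libraries with the highest Nefl, deletion 3, wild-type 5 and deletion 2, had summed marker levels of 26.8, 21.5 and 19.0 CPM, the 3 highest of the 10. Over the 10 libraries the correlation of Nefl with that sum was r = 0.751 (permutation p = 0.0128, adjusted p = 0.192; rho = 0.745, permutation p = 0.0180, adjusted p = 0.263 over 45 relations chosen after the values were seen; r = 0.829 without the 2 most extreme libraries). It was 0.915 within the deletion libraries and 0.571 within the wild-type ones. For Nefm, r was 0.568 (permutation p = 0.0885, adjusted p = 0.463; rho = 0.564, permutation p = 0.0981, adjusted p = 0.464; r = 0.5 without the same 2; 0.951 within the deletion and 0.219 within the wild-type libraries). For Nsg2 it was negative (r = -0.781, permutation p = 0.00777, adjusted p = 0.175; rho = -0.855, permutation p = 0.00275, adjusted p = 0.0837; r = -0.547 without the same 2; -0.744 within the deletion and -0.846 within the wild-type libraries). The heavy chain gene Nefh was negative as well (r = -0.513, permutation p = 0.128, adjusted p = 0.463). Its r was -0.75 within the deletion and -0.396 within the wild-type libraries. Ina had r = 0.101 (permutation p = 0.782, adjusted p = 0.941), with 0.537 within the deletion and -0.441 within the wild-type libraries. With the summed neural progenitor markers, r was -0.677 for Nsg2, -0.73 for Nefh and 0.543 for Nefl. None of the 45 relations passed, and the part of these markers in the filament levels was not tested. In bulk tissue, fewer cells of a type and less RNA per cell cannot be told apart.

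The other cell types had the following levels beside these values, with log2 fold changes and edgeR adjusted p for the genes of smallest p. Pan-neuronal markers summed to 8384 to 9900 CPM in the deletion group and 9053 to 9376 CPM in the wild-type group (12 of 12 tested, 7 higher and 5 lower, 0 passed, 1 had an unadjusted p under 0.05, median log2 fold change 0.02), led by Syt1 (0.16, SE 0.07, adjusted p = 0.441) and Elavl3 (0.08, SE 0.06, adjusted p = 0.698). Neural progenitor markers summed to 1041 to 1368 CPM in the deletion group and 1129 to 1274 CPM in the wild-type group (12 of 12 tested, 4 higher and 8 lower, 0 passed, 3 had an unadjusted p under 0.05, median -0.08), led by Pcna (-0.19, SE 0.08, adjusted p = 0.399) and Sox2 (-0.23, SE 0.10, adjusted p = 0.415). Markers of peripheral sensory neurons and neural crest, which could carry filament message from ganglia beside the brain, summed to 61.3 to 72.5 CPM in the deletion group and 64.6 to 76.0 CPM in the wild-type group (8 of 12 tested, 0 passed, 1 had an unadjusted p under 0.05), led by Sncg (-0.29, SE 0.11, adjusted p = 0.301) and Sox10 (0.45, SE 0.32, adjusted p = 0.671). Scn10a, which marks nociceptors, had 7 counts over all 10 libraries. Glial markers summed to 143 to 186 CPM in the deletion group and 125 to 180 CPM in the wild-type group (7 of 9 tested, 6 higher, 0 passed, 1 had an unadjusted p under 0.05), led by Mbp (0.18, SE 0.08, adjusted p = 0.463) and Pdgfra (0.22, SE 0.20, adjusted p = 0.770). Red blood cell markers summed to 2234 to 2981 CPM in the deletion group and 1699 to 2555 CPM in the wild-type group (7 of 8 tested, 7 higher, 0 passed, 1 had an unadjusted p under 0.05), led by Alas2 (0.47, SE 0.16, adjusted p = 0.228) and Hba-a2 (0.25, SE 0.12, adjusted p = 0.478). Endothelial, meningeal and microglial markers summed to 108 to 130 CPM in the deletion group and 115 to 128 CPM in the wild-type group (9 of 11 tested, 5 higher and 4 lower, 0 passed, 1 had an unadjusted p under 0.05), led by Dcn (1.40, SE 0.59, adjusted p = 0.392) and Cdh5 (0.23, SE 0.11, adjusted p = 0.486). Dcn was near the floor, at 0.93 CPM in the deletion group and 0.353 CPM in the wild-type group. Unlike Cdh5, the endothelial genes Pecam1 (-0.16, SE 0.09, adjusted p = 0.569) and Cldn5 (-0.13, SE 0.08, adjusted p = 0.635) were lower. Of 10 housekeeping genes 4 were higher and 6 lower, and 0 passed (1 had an unadjusted p under 0.05), led by Ubxn1 (-0.17, SE 0.06, adjusted p = 0.278) and Ppia (-0.14, SE 0.07, adjusted p = 0.523). limma-voom called 0 genes of each of these lists. DESeq2 gave an adjusted p to 11 of 12 pan-neuronal, 10 of 12 progenitor, 3 of 7 glial, 5 of 7 red blood cell, 2 of 9 endothelial, meningeal and microglial and 9 of 10 housekeeping genes, and called 0 of these. It gave none to the sensory and crest or the motor neuron markers. The part of these cell types in the results was not tested.

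Genes that work with the filaments were examined next. Of 9 tested genes of other intermediate filaments, 2 were higher and 7 lower in the deletion group (median log2 fold change -0.03), and 0 passed in edgeR (0 had an unadjusted p under 0.05), in limma-voom, or among the 4 to which DESeq2 gave an adjusted p. Nes, the nestin filament of progenitors, had 152 ± 13.5 CPM in the deletion group and 169 ± 23.4 CPM in the wild-type group (SD, n = 5 each; log2 fold change -0.16, SE 0.08, adjusted p = 0.529). The log2 fold change of Lmna, a nuclear lamin, was -0.17 (SE 0.10, adjusted p = 0.587). Peripherin (Prph), another filament of neurons, stood at 10.8 CPM in the deletion group and 10.9 CPM in the wild-type group. Of 14 genes of filament transport, crosslinking and turnover, 10 were higher and 4 lower, with a median of 0.03, and 0 passed in edgeR (1 had an unadjusted p under 0.05) or in the other tools. Dst, a linker of filaments to the cytoskeleton, had 260 ± 20.3 CPM in the deletion group and 234 ± 20.8 CPM in the wild-type group (log2 fold change 0.15, SE 0.07, adjusted p = 0.458). For Kif5a, the kinesin that carries neurofilaments, the log2 fold change was 0.13 (SE 0.07, adjusted p = 0.515), and for both genes each of the 5 deletion libraries exceeded the wild-type mean.

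Growth cone proteins other than Gap43, listed together with regeneration-associated factors such as Sox11 and Jun, were divided in direction. Of 25 tested genes of this joint list, 12 were higher and 13 lower in the deletion group, with a median of 0.00. None passed in edgeR, where 6 of the 25 were under an unadjusted p of 0.05 (3 in each direction), beside 10.5% of all genes. DESeq2 called 2 of the 23 to which it gave an adjusted p, beside 3.23% of all genes that received one, and limma-voom called 0. Tmsb10, a thymosin that binds actin monomers, stood at 1305 ± 90.1 CPM in the deletion group and 1578.5 ± 58.5 CPM in the wild-type group (SD, n = 5 each; log2 fold change -0.27, SE 0.06, edgeR adjusted p = 0.0785, DESeq2 adjusted p = 0.000543), with 5 of 5 deletion libraries under the mean of the wild-type group. Crmp1, a collapsin response mediator, stood at 1263 ± 87.3 CPM in the deletion group and 1081 ± 64.4 CPM in the wild-type group (log2 fold change 0.22, SE 0.07, edgeR adjusted p = 0.175, DESeq2 adjusted p = 0.016), higher in 5 of 5. The longest transcript of Tmsb10 has 690 bases and that of Crmp1 has 3051. Basp1, a partner of Gap43 in function at the growth cone membrane, was at -0.21 on the log2 scale (SE 0.08, adjusted p = 0.358), named here for that kinship after its value was seen.

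Relatives of the other members were examined in the same way. Of 12 genes of reticulons, Nogo receptors and the tubular endoplasmic reticulum, 10 were higher and 2 lower, with a median of 0.05, and 0 passed in edgeR, DESeq2 or limma-voom (in edgeR, 0 were under an unadjusted p of 0.05). Reep1, which curves the tubules, was at 0.11 (log2 fold change, SE 0.06, adjusted p = 0.568), and the Nogo receptor relative Rtn4rl2 at 0.23 (SE 0.18, adjusted p = 0.71). Of 9 ubiquitin hydrolase and ubiquitin genes, 3 were higher and 6 lower, with a median of -0.09; edgeR called 0, and 4 were under an unadjusted p of 0.05, all lower, beside 4.92% of all genes. DESeq2 called 2 of the 8 to which it gave an adjusted p, beside 3.23% of all genes that received one, and limma-voom called 0. Rps27a, which encodes ubiquitin fused to a ribosomal protein, was at -0.21 on the log2 scale (SE 0.06, edgeR adjusted p = 0.188, DESeq2 adjusted p = 0.0353). Processed pseudogenes resemble Rps27a closely, which makes its counts uncertain, and the same holds for Tmsb10. Of 12 Nsg relatives and genes of receptor trafficking, 7 were higher and 5 lower, with a median of 0.03, and 0 passed in edgeR (1 had an unadjusted p under 0.05) or in the other tools. Nsf, which takes apart SNARE complexes, was at 0.15 on the log2 scale (SE 0.06, adjusted p = 0.400), while the AMPA receptor gene Gria1 was at 0.15 (SE 0.08, adjusted p = 0.523).

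The genes most like each member across the 10 libraries were sought by the Pearson correlation of log2 CPM among 10305 genes with a mean of at least 10 CPM. These values are the highest of many and serve as a description. All genes of a library share its depth and length slope, which differ between libraries. For Nefl they were Cacnb2, a calcium channel subunit (r = 0.950), Hs6st2, which sulfates heparan sulfate (0.948), and Necab1, a neuronal calcium-binding protein (0.923). For Nefm they were Rimkla (0.933), the guanylate cyclase subunit Gucy1a1 (0.931) and the presynaptic priming gene Unc13c (0.917), so the lists of the 3 nearest genes of these neighbours had no gene in common. Ina was followed most closely by Klhl2 (0.933), Fam160b1 (0.931) and Arhgap44 (0.930), and Nefh by Micall2 (0.891), Zfp689 (0.891) and Lrrc42 (0.884). Gap43 was nearest to Stmn4, a stathmin of neurons (0.906), then Sirt5 (0.890) and Setd4 (0.872). For Uchl1 they were Kcnj10 (0.959), the glycolytic enzyme gene Gpi1 (0.928) and Slc29a4 (0.928), and for Rtn1 the neuronal glucose transporter gene Slc2a3 (0.955), the transcription factor gene Nfix (0.938) and Fam222a (0.932). Nsg1 was nearest to Bmerb1 (0.895), Orai2 (0.894) and Tmem86a (0.876), and Nsg2 to Ctnnbip1 (0.868), Nudcd3 (0.852) and Gng7 (0.842). None of these 27 genes passed edgeR's test between the groups (adjusted p from 0.301 to 0.999).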

How the data were processed

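The authors deposited 1 table of raw counts, whole numbers per Entrez gene ID; HISAT2, featureCounts and the build mm39 are named for them, per the submitters' processing notes. The sources used here do not give versions, annotation or strandedness. All columns matched a sample by title. Symbols came from RefSeq (GRCm38.p6), used for names, neighbours and start regions, and matched 30648 of 30935 IDs. The longest transcript of a gene in GENCODE M21 (GRCm38) gave its length and GC content, found for 92.4% of tested genes.

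The test on these counts was that of edgeR 4.0.16 under R 4.3.3 (filterByExpr, TMM, robust quasi-likelihood F test, group as the only term), with Benjamini-Hochberg adjustment over all 15288 genes and a threshold of 0.05, and the script was tested on simulated data. SE is the log2 fold change over the square root of F. Log2 CPM used a prior count of 2 and ratios one of 0.5. Correlations used 100000 permutations. DESeq2 1.42.0 and limma-voom (limma 3.58.1) were alternatives, and the trend correction entered a natural spline per variable (4 degrees of freedom) as an offset. Libraries of a group were checked for duplicates, and the smallest chi-square per degree of freedom between them was 6.04. None was dropped as a copy of another, and all 10 were kept, deletion 4 among them. P-values of the group comparisons set the difference between groups against the spread between these libraries. Members, lists and tests were chosen with earlier results of these data known. Named by rule are the members, Rbfox1, of each list every gene past the threshold or else the 2 of smallest p, and the 3 nearest genes of each member. Some genes that this rule names are not reported here. Prph, Basp1, Scn10a, Pecam1 and Cldn5 were named after their values were seen. The lists of midbrain and of forebrain and spinal cord markers were added later.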

Additional observations from a re-analysis of the deposited data

How the results depend on the processing

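The count of 0 called members held under every alternative: RLE and upper-quartile scaling, both other filters, DESeq2, limma-voom, both trend corrections, the replicate block and leaving out each library. The count over all genes (9) was 15 with upper-quartile factors, 69 without a filter, 261 in DESeq2, 0 in limma-voom, 0 with the length trend removed, 17 with the length and GC trend removed, and from 0 to 357 without single libraries (357 without deletion 4 and 88 without wild-type 2). For the numbers shared by both groups (2, 4, 5 and 6), deviations of same-numbered libraries correlated at -0.08, -0.13, -0.06 and 0.12. These 4 values are small and of mixed sign, and too few to decide whether same-numbered embryos shared a litter or preparation. With the replicate block 0 genes were called, and 0 on the same 8 libraries without it, an alternative added after the data were seen. Signs changed for Nefl with the replicate block (-0.0718), on those 8 libraries (-0.067) and without single libraries (-0.0118 to 0.122). They changed with the length trend removed for Gap43 (0.0516), Nsg1 (0.0283) and Nsg2 (0.0274), with GC content as well for Gap43 (0.0463), Nsg1 (0.0036) and Nsg2 (0.0109), and for Nsg1 without single libraries (-0.0287 to 0.0139). The log2 ratio of Nsg2 to Nsg1 became 0.0067 with the length and GC trend removed and 0.0061 with the replicate block, and that of Nefh to Nefl ran from -0.0471 to 0.1813 without single libraries. The log2 ratio of Ina to Nefl, 0.0789, was 0.2026 with the replicate block and ran from 0.0014 to 0.1515 without single libraries. In these cases the cause was not tested. The ratio of Nefm to Nefl kept its sign in 13 of 13 alternatives (0.10 to 0.19, adjusted p of 0.0635 or more). Nefh, at 152 to 255 reads, is the member that depth limits most.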
